A study of Homo sapiens with 6 samples.

Results

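The NF-kB system was followed in 10 genes, chosen by symbol as the subunits of the transcription factor, its inhibitors and the genes it induces to limit or extend its own response. They were the subunit genes NFKB1, NFKB2, RELA and RELB, the inhibitor genes NFKBIA, NFKBIE and NFKBIZ, and the feedback and target genes TNFAIP3, TNFAIP2 and BIRC3. All 10 had counts, and they stood among 19469 genes in the table. The cells were L3.6pl, an established human pancreatic cancer line derived from a lymph node metastasis and labelled as pancreatic adenosquamous carcinoma (the labels also write its name as L6.6pl). They were grown in serum-containing medium without any treatment named in the labels and sorted by flow cytometry on surface L1CAM, a cell adhesion molecule, with dead cells gated out. The 3 L1CAM_NEGATIVE libraries (L1low) and the 3 L1CAM_POSITIVE libraries (L1high) therefore came from 1 line, without genetic change, and differ by the sort. The question of the comparison was which transcripts differ between the L1low and L1high populations.

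NF-kB proteins are dimers of Rel family subunits. In resting cells they are held in the cytoplasm by IkB proteins, and stimuli such as TNF or interleukin 1 act through the IKK kinases to destroy IkB and free the dimer to enter the nucleus. NFKB1 and NFKB2 are made as precursors that are cut to p50 and p52. RELA carries the canonical pathway with p50, and RELB the non-canonical pathway with p52. Among the first genes switched on are NFKBIA and TNFAIP3, which shut the response down again, so that mRNA levels of these genes are often read beside the protein activity, which was not measured here. In pancreatic cancer cells the pathway is known for driving inflammatory cytokines and survival genes.

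NF-kB dimers bind a 10-base element called kappaB. The windows of 250 bases before each RefSeq gene start (GRCh38.p14) were searched on both strands for GGG, then any 2 bases, then TTTCC. A match was found in 608 of 35116 windows (1.73%), or at any start of 578 of 27305 genes (2.12%). Of the 10 genes, 8 had a window and 6 of these held a match, namely NFKB1, NFKB2, NFKBIA, NFKBIZ, TNFAIP3 and BIRC3. RELA and TNFAIP2 held none in their windows, and RELB and NFKBIE were not searched. The stretches of 130 bases around these matches are shown to let the elements be compared between the subunit, inhibitor and target genes, with the stretch of the chemokine gene CXCL1, whose counts are given further on, beside them. Each is written 5′ to 3′ on the strand of its gene, with the match in capitals. A match on the opposite strand therefore appears as its reverse complement. The stretches lie at chr4:102501229-102501358 (plus strand) for NFKB1, chr10:102394448-102394577 (plus) for NFKB2, chr14:35404750-35404879 (minus) for NFKBIA, chr3:101827740-101827869 (plus) for NFKBIZ, chr6:137867129-137867258 (plus) for TNFAIP3, chr11:102317234-102317363 (plus) for BIRC3 and chr4:73869263-73869392 (plus) for CXCL1.
NFKB1: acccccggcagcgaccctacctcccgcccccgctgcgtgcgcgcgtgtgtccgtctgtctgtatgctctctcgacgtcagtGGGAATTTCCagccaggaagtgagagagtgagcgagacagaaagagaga
NFKB2: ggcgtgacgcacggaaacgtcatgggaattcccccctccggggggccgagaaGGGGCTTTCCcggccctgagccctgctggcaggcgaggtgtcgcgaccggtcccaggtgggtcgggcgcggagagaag
NFKBIA: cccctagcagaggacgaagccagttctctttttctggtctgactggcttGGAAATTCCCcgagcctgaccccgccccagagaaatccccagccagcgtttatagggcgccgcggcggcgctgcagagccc
NFKBIZ: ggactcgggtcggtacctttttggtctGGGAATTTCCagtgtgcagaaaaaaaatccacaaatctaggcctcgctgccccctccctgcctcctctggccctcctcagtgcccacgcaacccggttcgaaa
TNFAIP3: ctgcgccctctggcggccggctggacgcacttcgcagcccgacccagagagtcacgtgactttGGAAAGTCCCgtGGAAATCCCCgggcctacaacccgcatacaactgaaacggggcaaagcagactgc
BIRC3: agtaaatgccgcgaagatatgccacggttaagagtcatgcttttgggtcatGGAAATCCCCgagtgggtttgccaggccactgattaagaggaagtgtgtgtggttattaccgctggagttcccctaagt
CXCL1: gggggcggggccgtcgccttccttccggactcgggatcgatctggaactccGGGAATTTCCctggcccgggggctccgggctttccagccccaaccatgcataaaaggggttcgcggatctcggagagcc

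Read on its own strand, the element was GGGAATTTCC in NFKB1, NFKBIA and NFKBIZ and also in the chemokine genes CXCL1, CXCL2 and CXCL3. TNFAIP3 held 2 elements, GGGACTTTCC and GGGGATTTCC, and BIRC3 held GGGGATTTCC, all on the strand opposite to the gene. In NFKB2 it was GGGGCTTTCC. The first base of the element lay at position -49 from the start of NFKB1, -78 from 1 start of NFKB2 (and -21 from another, not printed), -81 from that of NFKBIA and -67 and -55 from that of TNFAIP3. It lay further away, at -223 and -199, in NFKBIZ and BIRC3. A match describes the letters of the window and does not show that the factor binds there. Only this 1 pattern was searched, so a window without a match may still hold an element written in other letters.

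**Figure D1:**
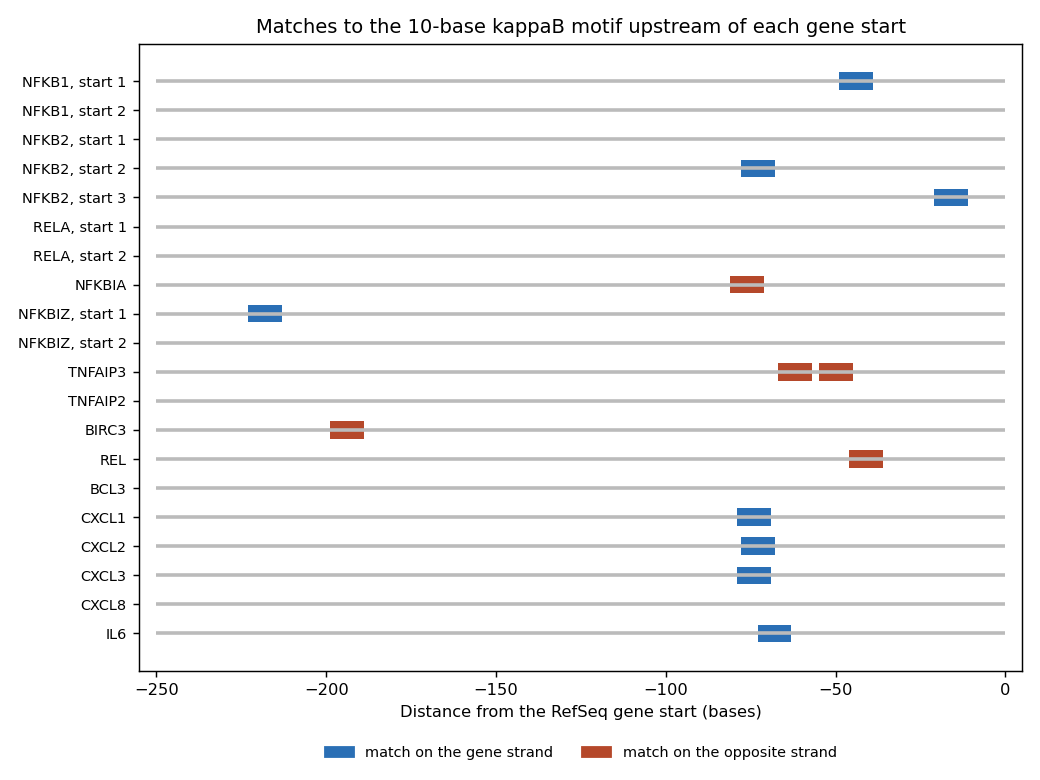
Each gray line is the window of 250 bases before 1 RefSeq gene start, with the distance from the start in bases on the horizontal axis. Boxes mark matches to the 10-base kappaB motif on the strand of the gene (blue) or the opposite strand (red). The NF-kB genes RELA and TNFAIP2 and the targets BCL3 and CXCL8 show none at any start drawn. Start 2 of NFKB1, start 1 of NFKB2 and start 2 of NFKBIZ also show none.

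The total counts ran from 16334610 to 21064685 per library, and the sort was visible in L1CAM, which fell from 81.1 ± 10.2 CPM (counts scaled to the library total adjusted by TMM, mean ± SD, n = 3) in L1high to 20.5 ± 3.01 in L1low, by 1.99 on the log2 scale (SE 0.12, edgeR adjusted p = 4.69e-06). Fold changes are L1low over L1high throughout, and a gene was called when its edgeR quasi-likelihood p, adjusted over 19467 genes tested, was under 0.05. No label says that the 3 libraries of a group came from separate cultures, so the p-values measure the spread between these libraries, which may be technical. All 6 epithelial marker genes tested were expressed (summed level 3005 to 3435 CPM in L1high, 3293 to 3518 in L1low). So were all 6 squamous markers (10380 to 11420 and 10610 to 11310 CPM). KRT19 rose by 0.63 on the log2 scale, while CLDN4 fell by 0.35 and EPCAM by 0.30 (edgeR adjusted p = 0.000136, 0.0211 and 0.0496). The calls on CLDN4 and EPCAM were lost in some fits without 1 library (up to 0.115 and 0.182). Among the squamous markers TP63 and KRT14 rose by 1.12 and 0.46 and KRT6A fell by 0.59 (edgeR adjusted p = 4.69e-06, 0.00339 and 5.85e-05). Of 10 leukocyte markers only ITGAX and CD68 had values, together 19.72 to 23.99 CPM in L1high and 15.6 to 18.3 in L1low. ITGAX fell from 13.84 to 6.94 CPM (log2 fold change -0.99, edgeR adjusted p = 0.00165), while CD68 had a log2 fold change of 0.21 and was not called. PTPRC and CD14 were not analysed here. Of 9 fibroblast markers 3 had values, together 86.8 to 98.5 CPM in L1high and 140.2 to 160.2 in L1low, of which LUM made 82.9 ± 6.13 and 142.1 ± 11.3 CPM and alone was called, and the part of any of these lists in the results was not tested. In bulk samples fewer cells of a type and less RNA per cell cannot be told apart.

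Most of the 10 NF-kB genes had similar levels in the sorted populations. RELA alone of the 10 was called (10.0%, against 7.95% of all genes tested), and it was higher in L1low by 1.19-fold (95% interval 1.08 to 1.32), where 4.58% of all genes were called higher. In 4 of the 10 genes the libraries of the groups did not overlap, 2 higher (RELA and NFKBIZ) and 2 lower (NFKB2 and BIRC3) in L1low, against 28.8% of all genes in either direction, 15.2% higher and 13.7% lower. The median log2 fold change of the 10 genes was 0.03 and that of all genes tested was -0.01. The median size of the change, regardless of sign, was 0.14 for these genes and 0.15 for all genes tested. For 9 of the 10 the 95% interval lay within a 1.5-fold change either way, and for BIRC3 its lower end, at 0.663-fold, reached just past it. The summed level of the 10 genes was 559.0 to 594.1 CPM in L1high and 597.6 to 609.9 CPM in L1low.

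**Figure D2:**
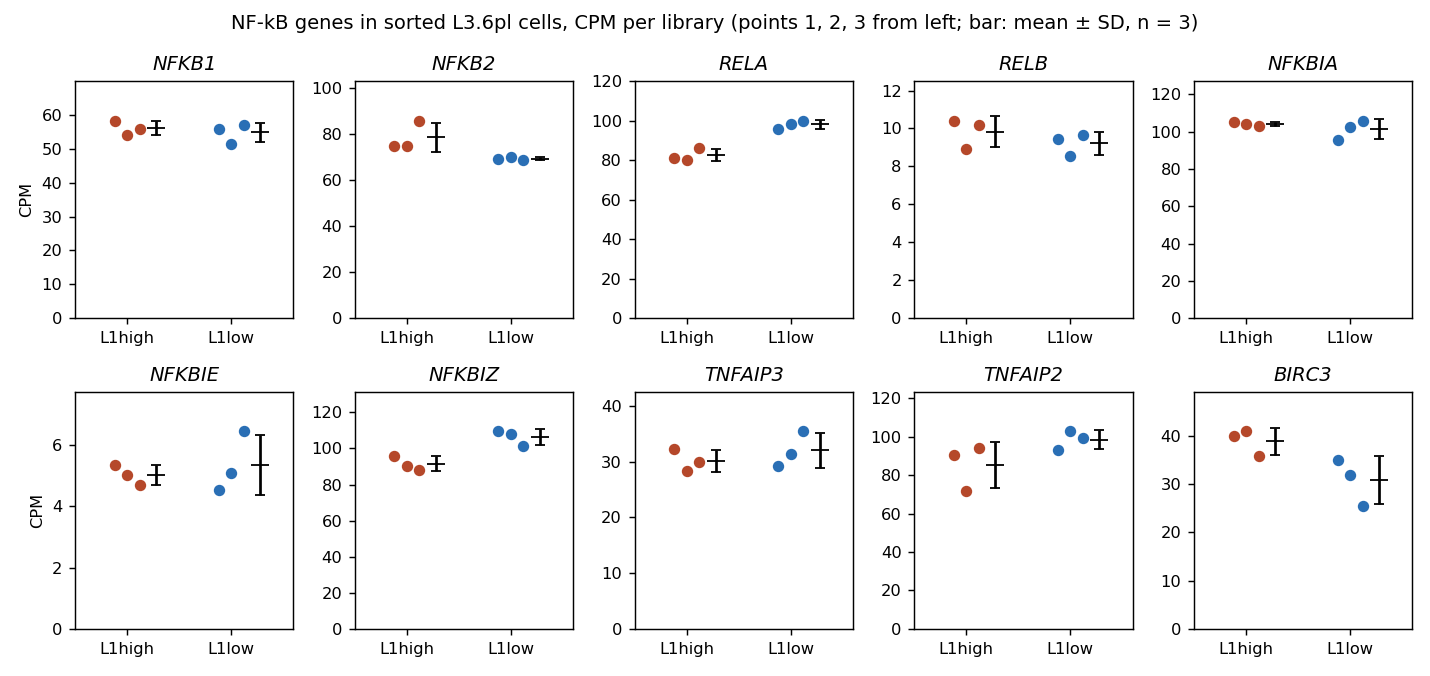
Level of each of the 10 NF-kB genes in CPM (vertical axis from 0) in the L1high (red) and L1low (blue) libraries, replicates 1, 2 and 3 from left, with a bar for the mean and SD (n = 3). The groups are apart in RELA and NFKBIZ, which sit higher in L1low, and in NFKB2 and BIRC3, which sit lower, and they overlap in the other 6.

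Among the subunits, RELA (ENSG00000173039, chr11:65653599-65663090, minus strand), which encodes p65, the main transactivating subunit, stood at 81.2, 80.2 and 85.9 CPM in L1high replicates 1, 2 and 3 and at 95.83, 98.34 and 100.01 CPM in the L1low replicates. Every L1low library lay above every L1high library, and the gap between the groups was wider than the spread within either. RELA rose by 0.25 on the log2 scale (SE 0.07, edgeR adjusted p = 0.0405). The call depended on single libraries. It held without L1high replicate 3 (adjusted p = 0.0393) and was lost without L1high replicate 1 (0.183) or 2 (0.0697) and without L1low replicate 1 (0.072), 2 (0.159) or 3 (0.0791), while the log2 fold change was between 0.23 and 0.29. RELA shares 103 exonic bases with RELA-DT on the opposite strand, whose counts were between 10 and 26 per library against 1410 to 1771 for RELA. Whether the counting used the strand is not given in the sources used here.

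NFKB1 (ENSG00000109320, chr4:102501330-102617302, plus strand), the p105 precursor of p50, the usual partner of RELA, was measured at 58.3, 54.1 and 55.9 CPM in L1high and 55.9, 51.5 and 57.0 CPM in L1low. The groups overlapped and replicate 2 was the lowest of both. The log2 fold change of NFKB1 was -0.03 (95% interval -0.20 to 0.13, edgeR adjusted p = 0.83).

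NFKB2 (ENSG00000077150, chr10:102394110-102402524, plus strand) encodes the p100 precursor of p52, which also acts as an inhibitor until it is cut. Its level was 74.7, 74.9 and 85.7 CPM in L1high and 69.2, 69.8 and 68.5 CPM in L1low. All L1low libraries were below all L1high libraries, with L1high replicate 3 standing above the other L1high replicates. The log2 fold change of -0.18 (SE 0.08) was not called (edgeR adjusted p = 0.178), and it was -0.10 without that library.

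RELB (ENSG00000104856, chr19:45001461-45038192, plus strand), the partner of p52, had the lowest CPM of the subunits, with 10.4, 8.91 and 10.2 in L1high and 9.47, 8.52 and 9.66 in L1low. The groups overlapped, and the log2 fold change of -0.09 (95% interval -0.36 to 0.17) was not called (edgeR adjusted p = 0.695).

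Because length cancels between groups, the balance of subunits was also followed as a ratio of length-scaled counts within each library. The RELB to RELA ratio was 0.234, 0.202 and 0.216 in L1high and 0.180, 0.158 and 0.176 in L1low, so that every L1low library was below every L1high library. Its mean was 0.217 ± 0.0157 in L1high and 0.171 ± 0.0117 in L1low (SD, n = 3), a log2 difference of -0.34, to which the call on RELA and the uncalled difference of RELB both contribute. The NFKB2 to NFKB1 ratio was 3.93 ± 0.355 in L1high and 3.55 ± 0.224 in L1low, and its libraries overlapped. Its size rests on the summed exon lengths, 15679 bases for NFKB1 and 5583 for NFKB2. With counts not scaled to length its mean was 1.399 in L1high and 1.265 in L1low. No test was made on these ratios.

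Of the inhibitors, NFKBIA (ENSG00000100906, chr14:35401079-35404749, minus strand), which encodes IkB-alpha, the inhibitor degraded on stimulation and rebuilt from its own kappaB-driven gene, was measured at 105.4, 104.3 and 103.1 CPM in L1high and 95.7, 102.8 and 106.0 CPM in L1low. Its L1high libraries were nearly level, and the L1low libraries lay on both sides of them. The log2 fold change of NFKBIA was -0.04 (95% interval -0.19 to 0.11, edgeR adjusted p = 0.772), and the interval of its fold runs from 0.879 to 1.08.

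NFKBIE (ENSG00000146232, chr6:44258166-44265788, minus strand), encoding IkB-epsilon, a slower inhibitor, was the lowest of the 10 genes with 5.33, 5.01 and 4.69 CPM in L1high and 4.51, 5.07 and 6.44 CPM in L1low. Its counts, 77 to 114 per library, leave a wide interval of -0.27 to 0.45 around the log2 fold change of 0.09 (edgeR adjusted p = 0.797). L1low replicate 3 was the highest library and L1low replicate 1 the lowest.

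NFKBIZ (ENSG00000144802, chr3:101827991-101861022, plus strand) encodes IkB-zeta, an atypical nuclear IkB that works as a co-activator at a subset of targets such as IL6 and LCN2. It was measured at 96.1, 90.45 and 88.1 CPM in L1high and 109.5, 107.8 and 101.3 CPM in L1low. All L1low libraries were above all L1high libraries, and the log2 fold change of 0.21 (SE 0.07, 95% interval 0.06 to 0.36) was not called (edgeR adjusted p = 0.0861). NFKBIZ shares 194 exonic bases on the same strand with NXPE3, for which 664 to 853 counts per library were recorded and whose log2 fold change was 0.06 (edgeR adjusted p = 0.739).

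The feedback gene TNFAIP3 (ENSG00000118503, chr6:137867214-137883314, plus strand) encodes A20, a ubiquitin-editing enzyme that ends NF-kB signalling. Its level was 32.2, 28.4 and 29.9 CPM in L1high and 29.2, 31.4 and 35.5 CPM in L1low. The groups overlapped, and the log2 fold change of 0.09 (95% interval -0.13 to 0.30) was not called (edgeR adjusted p = 0.645).

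TNFAIP2 (ENSG00000185215, chr14:103121476-103137439, plus strand), a TNF-induced gene linked to membrane protrusions, was measured at 90.4, 71.8 and 94.1 CPM in L1high and 93.1, 102.9 and 99.4 CPM in L1low. L1high replicate 2 stood far below the other L1high libraries, and the other L1high libraries overlapped with L1low. The log2 fold change of 0.21 (SE 0.10, edgeR adjusted p = 0.234) was 0.09 without that library.

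BIRC3 (ENSG00000023445, chr11:102317484-102339403, plus strand), which encodes cIAP2, a ubiquitin ligase that restrains the non-canonical kinase NIK and protects from TNF-induced death, had the largest log2 fold change in size of the 10 genes over all 6 libraries. Its level was 40.02, 40.99 and 35.8 CPM in L1high and 35.1, 31.9 and 25.4 CPM in L1low. The L1low libraries were all below the L1high libraries, but L1low replicate 1 and L1high replicate 3 were nearly equal, and L1low replicate 3 was the lowest. The log2 fold change was -0.34 (SE 0.12, 95% interval -0.59 to -0.08) and was not called (edgeR adjusted p = 0.106, and 0.0189 with the replicate number as a block). Without L1low replicate 3 it was -0.21, smaller in size than that of RELA in the same fit (0.25). BIRC2, the neighbouring paralog encoding cIAP1, had a log2 fold change of 0.00 (edgeR adjusted p = 0.996), and none of the 5 genes tested from the same 11q22 stretch, BIRC2 among them, was called by edgeR or had an unadjusted p under 0.05 (median log2 fold change 0.07).

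Per length (TPM, counts divided by the summed exon length of each gene and scaled to the library), the order in L1high was NFKBIA with 65.7 ± 1.33, then TNFAIP2 with 36.2 ± 5.41, NFKBIZ with 33.2 ± 1.79, RELA with 32.3 ± 1.34 and NFKB2 with 30.1 ± 2.46 (SD, n = 3). A lower set followed, with BIRC3 at 11.1 ± 0.774, TNFAIP3 at 10.0 ± 0.762, NFKB1 at 7.66 ± 0.382, RELB at 7.03 ± 0.660 and NFKBIE at 4.16 ± 0.292 TPM. The neighbours from TNFAIP2 to NFKB2, BIRC3 with TNFAIP3, and NFKB1 with RELB differed by less than the sum of their SDs. In L1low NFKB2 had a level of 26.5 ± 1.39 TPM, below RELA with 38.4 ± 1.002 by more than their spread, and TNFAIP3 (10.6 ± 0.554) and BIRC3 (8.86 ± 1.80) changed places within theirs. The level of NFKB1 against the others rests on an exon length of 15679 bases summed over all its annotated transcripts.

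The other genes of the pathway were read from 7 lists written from general knowledge, with earlier results of these data known. Of their 113 genes 88 were tested and 20 called, 10 higher and 10 lower. Outside the target genes, 8 of 61 were called (13.1%, against 7.95% of all genes tested), all of them higher in L1low. Among the other Rel and IkB genes 2 of 4 rose (median log2 fold change 0.17). REL, the remaining Rel subunit, went from 17.3, 16.6 and 14.7 CPM in L1high to 25.9, 21.3 and 20.2 CPM in L1low, with no overlap. REL rose by 0.47 on the log2 scale (SE 0.12, edgeR adjusted p = 0.0331), and BCL3, a nuclear IkB that partners p50 and p52, rose by 0.26 (SE 0.07, adjusted p = 0.0383). The REL call was lost in 5 of the 6 fits that left out 1 library (every one except without L1low replicate 3, with an adjusted p of up to 0.113), and that of BCL3 in 4 of 6 (without L1high replicate 1 or 2 or L1low replicate 2 or 3, up to 0.195).

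Among 15 kinases of the IKK complex and upstream, only MAP3K14 was called (6.67%, against 7.95% of all genes tested, median of the list -0.06). MAP3K14 encodes NIK, the kinase of the non-canonical pathway, and rose from 15.9 ± 1.23 to 20.8 ± 0.0458 CPM (log2 fold change 0.39, SE 0.10, edgeR adjusted p = 0.0344), a call lost without any 1 library (0.0608 to 0.13). The IKK subunits CHUK, IKBKB and IKBKG had log2 fold changes of -0.27, 0.07 and 0.09 and were not called (edgeR adjusted p = 0.0746, 0.699 and 0.664).

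Among 17 adaptors and ubiquitin ligases 3 were called (17.6%, against 7.95% of all genes tested, median of the list 0.04). All 3 were higher in L1low, where 4.58% of all genes were called higher. CARD10, a scaffold protein that carries receptor signals to IKK, rose from 57.4 ± 8.42 to 86.4 ± 3.75 CPM (log2 fold change 0.59, SE 0.10, edgeR adjusted p = 0.00411) and was called in every alternative run. BCL10, an adaptor of the same route, rose by 0.40 (edgeR adjusted p = 0.0305), a call that was lost in 4 of the 6 fits without 1 library (L1high replicate 1 or 3 or L1low replicate 1 or 2, 0.0652 to 0.135). MALT1, of the same route and named after its values were seen, had a log2 fold change of -0.06 (edgeR adjusted p = 0.835). TRAF2 and TRAF3, which with the cIAPs keep NIK low, had log2 fold changes of -0.09 and -0.08 and were not called.

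Of 13 receptor genes tested (15 in the list, median 0.08), IL1RAP, the shared chain of interleukin 1 receptors, rose by 0.49 (SE 0.12, edgeR adjusted p = 0.0252), a call lost without L1high replicate 1 or 3 or L1low replicate 1 or 2 (0.0519 to 0.141). TNFRSF1A, the main TNF receptor, had a log2 fold change of 0.20 (adjusted p = 0.0917). Of 12 ligand genes only IL1B and IL18 were tested and neither was called by edgeR at an adjusted p under 0.05, IL1B at -0.72 (adjusted p = 0.203, and -0.37 without L1high replicate 3 or -0.48 without L1low replicate 2). Of 10 deubiquitinases and other brakes tested, TNIP1, a partner of A20, rose by 0.27 (adjusted p = 0.0329, lost without L1high replicate 1 or 2 or L1low replicate 2 or 3), and CYLD had a log2 fold change of -0.10.

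**Figure D3:**
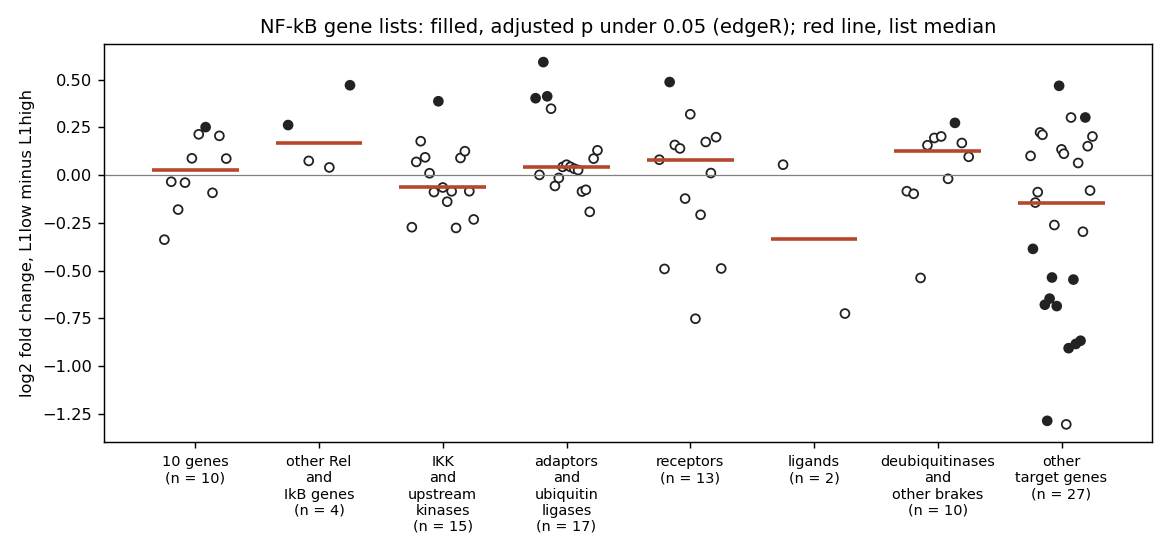
Log2 fold change (L1low over L1high, vertical axis) of every gene tested in the 10 NF-kB genes and in 7 other lists of the pathway, with filled points for edgeR adjusted p under 0.05 and a red line at the list median. The 10 genes lie between -0.34 and 0.25, while the other target genes reach from -1.30 to 0.47. The lowest point is IL32, which was not called and had 0.279 to 1.47 CPM in L1low.

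The other NF-kB target genes held most of the calls. Of 27 tested (39 in the list), 12 were called (44.4%, against 7.95% of all genes tested), 10 lower (3.37% of all genes were called lower) and 2 higher, with a median log2 fold change of -0.14. LIF, a cytokine of the IL6 family, was at 183.5, 166.3 and 186.7 CPM in L1high and 92.7, 97.7 and 100.4 CPM in L1low, a fall by 0.88 on the log2 scale (SE 0.07, edgeR adjusted p = 1.71e-05). CXCL8, the neutrophil attractant interleukin 8, went from 87.1, 94.4 and 73.5 CPM in L1high to 57.3, 49.2 and 52.2 CPM in L1low and fell by 0.69 (SE 0.10, adjusted p = 0.00135). In both genes the groups were well apart.

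CXCL1, a chemokine of the same family, fell from 177.6 ± 24.1 to 111.1 ± 10.3 CPM (log2 fold change -0.68, SE 0.10, edgeR adjusted p = 0.00176). IL6 fell by 0.91 (adjusted p = 0.00881) from 4.14 to 2.21 CPM. The low genes CXCL10 and NOD2 fell by 1.29 (adjusted p = 0.0164) and 0.87 (0.0305), from 2.49 to 1.02 CPM and from 2.91 to 1.596 CPM. CXCL10 stood at 1.21, 0.947 and 0.904 CPM in L1low. It met the limit passed by every deposited gene (1 CPM in 2 or more libraries) only through L1high. That limit favours a fall in such a gene, and CXCL10 is among the 10 targets called lower. IL32, which was not called, also met the limit only through L1high, with 0.826, 0.279 and 1.47 CPM in L1low. LIF, CXCL8, CXCL1 and IL6 were called in every alternative run. The call on CXCL10 was lost without L1high replicate 2 or L1low replicate 2 or 3 (0.0562 to 0.0866), and that on NOD2 without any 1 library except L1low replicate 1 (0.0508 to 0.115) and in DESeq2 (0.057).

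CXCL2, CXCL3, LCN2 and C3, named after their values were seen, fell by 0.65, 0.54, 0.55 and 0.39 (edgeR adjusted p = 0.0011, 0.0429, 0.0289 and 0.00813). The call on CXCL3 was lost without L1high replicate 1 or 2 or L1low replicate 1 or 2 (0.105 to 0.186), that on LCN2 without L1high replicate 2 or 3 or L1low replicate 1 or 2 (0.0712 to 0.142) and that on C3 without L1high replicate 1 (0.0526). CXCL1, CXCL2 and CXCL3 are close paralogs, and reads the authors' counting could have split among them make their separate values uncertain. GADD45B, a stress-induced regulator of JNK signalling, and PTGS2, the inducible cyclooxygenase, also named afterwards, rose by 0.47 (adjusted p = 0.00396) and 0.30 (0.0409), the latter call lost without L1high replicate 1 or 3 or L1low replicate 1 or 2 (0.0907 to 0.185). Of the 27 tested, 6 were called lower without L1high replicate 2 or without L1low replicate 2. ICAM1, SOD2 and TNF were not analysed here. NFKBIA and TNFAIP3, targets of the same factor, had the values given above, and the difference between them and the cytokine genes was not tested.

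**Figure D4:**
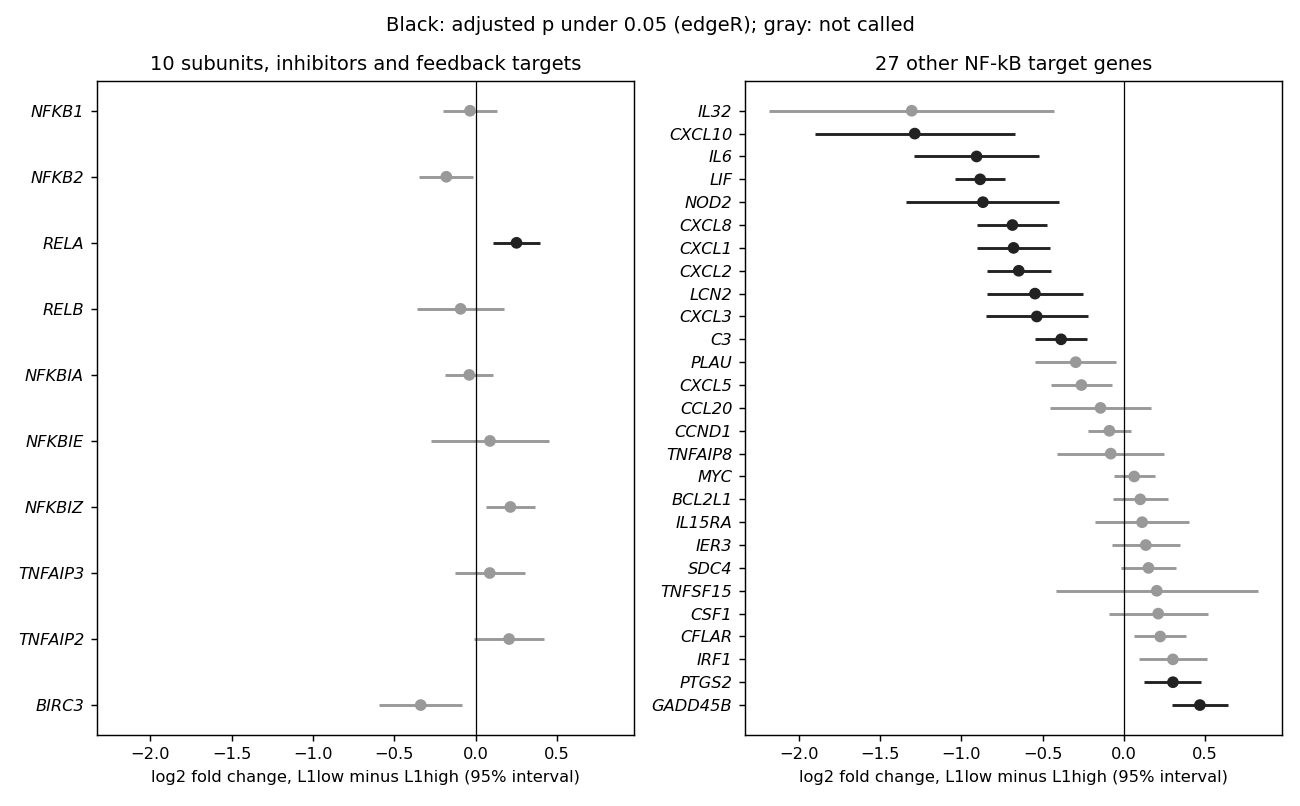
Log2 fold change (L1low over L1high, horizontal axis) with its 95% interval for the 10 NF-kB genes (left) and 27 other target genes tested (right), black where the edgeR adjusted p was under 0.05 and gray otherwise. RELA at 0.25 is the only black point on the left. The right side runs from IL32 at -1.30, which was not called, to GADD45B at 0.47. IL32 met the limit of 1 CPM in 2 or more libraries only through L1high.

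Genes of the early response, which cell handling and sorting can also switch on, were in part called. Of 14 tested, 6 were called higher and 1 lower in L1low (4.58% and 3.37% of all genes tested) and 7 were not called (median 0.21), with a summed level of 10730 to 11340 CPM in L1high and 12400 to 13170 CPM in L1low. ATF3 rose by 0.49, ZFP36, which destabilizes cytokine mRNAs, by 0.49 and FOSB by 0.43 (edgeR adjusted p = 0.000378, 0.000468 and 0.00083), while the chaperone gene HSPA8 fell by 0.32 (0.00375). Their part in the levels of RELA, REL and the cytokine genes was not tested.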

How the data were processed

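RNA of sorted L1high and L1low L3.6pl cells was sequenced as stranded, paired-end mRNA libraries. The authors aligned trimmed reads to GRCh38 with BWA, which does not place reads across splice junctions, and counted them with featureCounts on Ensembl release 94. The deposited values are raw read counts per gene. Every gene of the table (19469) passed 1 CPM in 2 or more libraries, and lower genes cannot be assessed. Tool versions and the counting options for strand and multi-mapping are not given in the sources used here.

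L1low was compared with L1high over all 6 libraries in R 4.3.3 with edgeR 4.0.16 (TMM, filterByExpr, quasi-likelihood test, Benjamini-Hochberg adjustment over 19467 genes, calls at an adjusted p under 0.05). SEs were taken as the size of the log2 change over the square root of F. CPM use TMM factors, and lengths, coordinates and symbols came from GENCODE 44, which matched 19344 identifiers. Promoters came from RefSeq. The alternatives were each library left out, DESeq2 1.42.0, a replicate block, RLE scaling, library totals, no filter on low counts and at least 10 counts in every library. On simulated data the fit recovered 182 of 200 genes given a log2 change of 1, and 14 of its 196 calls were false, over 19465 genes. Smaller changes, such as those of the 10 NF-kB genes (at most 0.34 in size), were not simulated, so their recovery is not known.

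The members and lists were chosen with earlier results of these data known. The study's own list of results left out L1high replicate 3, for which no reason was found. Without that library the calls on REL, MAP3K14, BCL10, IL1RAP, NOD2, LCN2, PTGS2 and the marker CLDN4 were lost. Besides the 10 genes, the text names up to 6 called genes of each list with the largest change and a set of pathway genes (among them CHUK, IKBKB, IKBKG, TRAF2, TRAF3, BIRC2, CYLD, IL1B and TNFRSF1A) whatever their result. No pair of libraries agreed within sampling noise. Of the called genes of the lists, 1 is counted but not reported here by name.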

Additional observations from a re-analysis of the deposited data

How the results depend on the processing

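Of 120 values of the 10 NF-kB genes in other settings, 111 had the direction and call of the values reported. Called among the 10 genes were 0 to 1 with 1 library left out, and 2 (RELA and BIRC3) with the replicate block. Over all genes 627 to 1473 were called with 1 library left out, fewest without L1low replicate 2 and next without L1high replicate 1 (674), and 2363 with the block, against 1548. Of the other NF-kB genes 8 to 16 were called with 1 library left out, against 20, and of the targets called lower 6 to 9, against 10. The direction turned for uncalled genes when 1 library was left out, with log2 fold changes of -0.060 to 0.0085 for NFKB1, -0.061 to 0.0014 for NFKBIA, -0.057 to 0.20 for NFKBIE, -0.0009 to 0.14 for IKBKB and -0.10 to 0.11 for BIRC2, which was also -0.003 with the block and -0.0087 with library totals. The causes were not tested. CHUK was called with the block (adjusted p = 0.0468). The labels give the same replicate numbers to both groups but no shared origin, so the numbers were not taken to pair the samples. The deviations of same-numbered libraries correlated at 0.07, 0.09 and 0.21, and every library correlated best with its own number. Whether same-numbered libraries share a batch was not tested, and the numbers of calls depend on this choice. DESeq2 gave no adjusted p for CXCL10. Low counts limit precision, as in NFKBIE with 77 to 114 per library.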

Other observations

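The mean of the log2 CPM of the 10 NF-kB genes, each centred on its own mean, ran from -0.06 to 0.04 over the L1high libraries and from -0.02 to 0.04 over the L1low libraries, and the groups overlapped. Among 17092 genes, those whose log2 CPM followed this mean most closely over the 6 libraries were SIL1, KRT18P15, RPS15AP11, MIR3936HG and ENSG00000275457 (Pearson's r of 0.986, 0.984, 0.975, 0.971 and 0.970). None of the 5 was called by edgeR, and their log2 fold changes were between 0.02 and 0.09. The 6 points share depth and library preparation, and with so few the highest values of r among many genes are a description only.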
